A study of Saccharomyces cerevisiae with 18 samples.

Results

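The genes described here make inositol and the membrane phospholipids built from it or beside it in budding yeast (Saccharomyces cerevisiae, strain S288C). The list holds 9 genes, INO1, ITR1, ITR2, CHO1, PSD1, CHO2, OPI3, CKI1 and EKI1. They were found by symbol in the annotation of the array, where 8 of the 9 had 1 probe each among 5365 named genes. CHO1, the phosphatidylserine synthase gene, had no probe under its symbol or identifier and was not analysed here. Each of the 8 was measured on 2 or 3 arrays per isomer, and all 8 were among the 5096 genes tested. INO1 was measured on 7 of the 9 arrays, EKI1 on 7, PSD1 and CKI1 on 8, and the other 4 on all 9. No threshold on a measured value enters the list, but the genes were chosen from the pathway with results of these arrays known, the high log2 ratio of INO1 in m-nitrophenol among them. INO1 is therefore described without a test, and the p-values of the other 7 genes are those of a fit over all genes and no independent evidence about the list.

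Inositol is made from glucose 6-phosphate in a step that the Ino1 enzyme limits, or is taken up from the medium. It is a part of phosphatidylinositol and its phosphorylated forms. CDP-diacylglycerol feeds a route through phosphatidylserine and phosphatidylethanolamine to phosphatidylcholine, while the Kennedy pathway makes the last 2 lipids from free ethanolamine and choline. Many of these genes share a promoter element that the Ino2 and Ino4 proteins bind as a pair to activate transcription, and the repressor Opi1 turns them down when inositol is plentiful.

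Cultures in YPD, a rich medium with glucose, at 25 °C and an optical density of 1 were exposed for 2 h to 3 mM o-nitrophenol, 5 mM m-nitrophenol or 1.5 mM p-nitrophenol, and compared with cells of the same strain before treatment. The 3 compounds are isomers, a phenol ring with a nitro group next to the hydroxyl group (o-), 1 position further (m-) or opposite to it (p-). Each isomer had 3 independent biological samples, each on 1 array that carried the treated polyA RNA in Cy5 and the RNA from before treatment in Cy3. Scans at 2 laser powers were averaged per array, so n counts arrays and not scans. Where 1 scan held no value for a gene, the other was used alone. The doses differ between isomers, so that isomer and dose cannot be told apart in any difference between them. Neither a culture left untreated for 2 h nor a dye swap is among the samples, so growth over 2 h and dye effects are part of every ratio to before treatment. Whether the arrays shared RNA from before treatment is not stated, and its spread is not estimated.

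Values are log2 ratios of treated over before treatment, a direction taken from the dyes of each channel. It is likely, and no source attaches it to the values themselves. A log2 ratio of 1 is a doubling. The ratios compare whole cultures, so a change in every cell and a change in some of the cells cannot be told apart, and they give no level of 1 gene against another. Means carry ± the standard error from limma, whose p-values were adjusted over all 5096 genes (Benjamini-Hochberg, threshold 0.05). The arrays numbered 1 stood apart in every group. They held values for 3797 (o-), 1970 (m-) and 4369 (p-nitrophenol) genes, against 5155 to 5343 for arrays 2 and 3. Pearson's r across genes, which are not independent replicates, was 0.50 to 0.61 between an array numbered 1 and its group, and 0.84 to 0.88 between arrays 2 and 3 of a group. Where leaving out all 3 of these arrays changed the call of a named gene against before treatment, the value without them is also given.

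Among the 7 tested genes, rises were seen at the methylation steps and at choline kinase, and no gene fell past the threshold. In o-nitrophenol OPI3, CHO2 and CKI1 rose, 3 of 7, where 13.8% of all genes rose (32.4% were called in either direction). In m-nitrophenol OPI3 and CKI1 rose, 2 of 7, where 8.26% of all genes rose. In p-nitrophenol the same 2 genes rose, where 13% of all genes did. The median mean log2 ratio of the 7 genes was 1.24 in o-nitrophenol, 1.30 in m-nitrophenol and 0.53 in p-nitrophenol, beside -0.17, 0.04 and 0.10 for all 5096 genes. INO1, described without a test, had the highest mean of the 8 genes in o- and m-nitrophenol. The plot of each gene on each array shows these values.

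**Figure D1:**
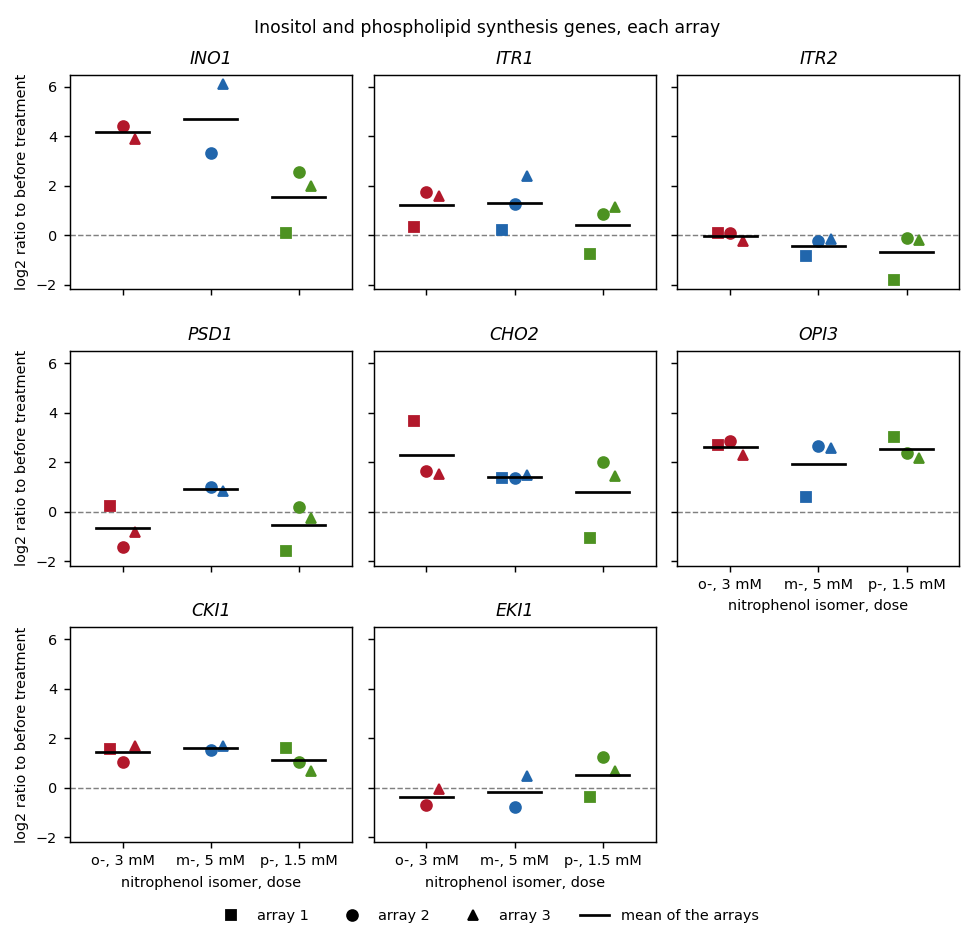
Log2 ratio to before treatment (vertical axis) of the 8 measured genes on each array, in o-, m- and p-nitrophenol (horizontal axis). Squares, circles and triangles are arrays 1, 2 and 3, the black line is the mean of the arrays and the dashed line is the level before treatment. OPI3 and CKI1 lie above 0 on every array, INO1 reaches 6.11 on m-nitrophenol array 3, and p-nitrophenol array 1 is the lowest of its group for INO1, ITR1, ITR2, PSD1, CHO2 and EKI1.

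INO1 (YJL153C) encodes inositol-3-phosphate synthase, the enzyme that makes inositol from glucose 6-phosphate. Its log2 ratio was 4.44 and 3.89 on o-nitrophenol arrays 2 and 3, and array 1 held no value. It was 3.31 and 6.11 on m-nitrophenol arrays 2 and 3, again with no value on array 1. In p-nitrophenol it was 0.08, 2.56 and 1.99 on arrays 1, 2 and 3, with the value of array 1 from the high-power scan alone. Every o- and m-nitrophenol array lay above every p-nitrophenol array, while the o- and m-nitrophenol values overlapped. The means were 4.16 ± 0.72 in o-nitrophenol, 4.71 ± 0.72 in m-nitrophenol and 1.55 ± 0.59 in p-nitrophenol, which are 17.9, 26.2 and 2.92 times the level before treatment. Among the 5096 genes this mean ranked 34 from the top in o-nitrophenol, 3 in m-nitrophenol and 238 in p-nitrophenol, places that would count from the bottom if the ratios ran the other way. The m-nitrophenol mean rests on 2 arrays that lie far apart, and the p-nitrophenol mean was 2.28 ± 0.61 without array 1 of that group. The m-nitrophenol mean exceeded that of p-nitrophenol by 3.17 ± 0.93, or by 1.77 without m-nitrophenol array 3. The o-nitrophenol mean exceeded that of p-nitrophenol by 2.62 ± 0.93. It differed from that of m-nitrophenol by -0.55 ± 1.02, which turned to 0.85 without m-nitrophenol array 3.

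ITR1 (YDR497C) and ITR2 (YOL103W) encode the 2 inositol transporters of the plasma membrane, of which Itr1 is the major one. ITR1 had log2 ratios of 0.36, 1.77 and 1.58 on o-nitrophenol arrays 1 to 3. The values were 0.22, 1.26 and 2.41 in m-nitrophenol and -0.76, 0.86 and 1.14 in p-nitrophenol. In every group array 1 was the lowest, and 8 of the 9 values were above 0. The value on o-nitrophenol array 1 averaged scans at 0.79 (high power) and -0.07 (low power). ITR1 averaged 1.24 ± 0.48 in o-nitrophenol (adjusted p = 0.0694), 1.30 ± 0.48 in m-nitrophenol (0.0848) and 0.42 ± 0.48 in p-nitrophenol (0.551), none of which passed the threshold. Without the 3 arrays numbered 1 the means were 1.68 (adjusted p = 0.00195), 1.84 (0.00175) and 1.00 (0.0259), and all 3 passed. Without array 1 of its own group alone ITR1 also passed in o-nitrophenol (0.0401) and in m-nitrophenol (0.0463), and it passed in o-nitrophenol without p-nitrophenol array 1 (0.0434). With all 9 arrays it passed in o-nitrophenol with the high-power scans alone (0.0427), all 18 scans (0.0336) or centred arrays (0.0409), and in m-nitrophenol with all 18 scans (0.0386) or quantile normalization (0.0437).

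For ITR2 the log2 ratio was 0.10, 0.11 and -0.22 on the o-nitrophenol arrays. In m-nitrophenol the 3 arrays gave -0.85, -0.22 and -0.16, and p-nitrophenol gave -1.78, -0.09 and -0.18. Apart from the arrays numbered 1 all of them lay between -0.22 and 0.11. The means were 0.00 ± 0.34, -0.41 ± 0.34 and -0.69 ± 0.34 (adjusted p = 0.994, 0.426 and 0.161 in o-, m- and p-nitrophenol). The 2 transporters are paralogs, and the part of each gene that its probe reads is not known here.

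PSD1 (YNL169C) encodes the mitochondrial phosphatidylserine decarboxylase, which makes phosphatidylethanolamine. Its log2 ratio was 0.21, -1.43 and -0.80 in o-nitrophenol, 1.00 and 0.84 on m-nitrophenol arrays 2 and 3, and -1.59, 0.18 and -0.25 in p-nitrophenol. The value on o-nitrophenol array 1 averaged scans at 0.76 (high power) and -0.35 (low power). Both m-nitrophenol arrays lay above every array of the other isomers. The means of -0.68 ± 0.40 in o-nitrophenol, 0.92 ± 0.49 in m-nitrophenol and -0.55 ± 0.40 in p-nitrophenol did not pass the threshold (adjusted p = 0.219, 0.220 and 0.335). Without the 3 arrays numbered 1 PSD1 was lower in o-nitrophenol, at -1.12 (adjusted p = 0.00637), and higher in m-nitrophenol, at 0.92 (0.0191), and the p-nitrophenol mean was -0.03.

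CHO2 (YGR157W) and OPI3 (YJR073C) encode the methyltransferases that turn phosphatidylethanolamine into phosphatidylcholine, Cho2 for the first methyl group and Opi3 for those that follow. CHO2 had log2 ratios of 3.68, 1.65 and 1.53 on the o-nitrophenol arrays. In m-nitrophenol the 3 arrays gave 1.36, 1.38 and 1.47, and p-nitrophenol gave -1.05, 1.99 and 1.45. The 3 m-nitrophenol arrays lay close together, all below the o-nitrophenol arrays, while p-nitrophenol array 1 was the single array under 0. CHO2 rose in o-nitrophenol, by 2.29 ± 0.55 (4.87 times the level before treatment, adjusted p = 0.0117). Its means of 1.40 ± 0.55 in m-nitrophenol (0.107) and 0.80 ± 0.55 in p-nitrophenol (0.316) did not pass. These calls turned on single arrays and on processing. The o-nitrophenol call ended without array 1 of that group (1.59, adjusted p = 0.0601) and with the low-power scans alone (1.61, 0.0564). The value of 3.68 on o-nitrophenol array 1 came from the high-power scan alone, so both of these settings left it out. The m-nitrophenol mean passed with all 18 scans (0.0270), with scale (0.0376) or quantile normalization (0.0358) and with that group fitted alone (0.0111). In addition, the p-nitrophenol mean passed without array 1 of that group (1.72, 0.0386), as did the m-nitrophenol mean without the same p-nitrophenol array (0.0320). Without all 3 arrays numbered 1 CHO2 was higher in each isomer, by 1.59, 1.42 and 1.72 in o-, m- and p-nitrophenol.

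OPI3 was above 0 on all 9 arrays. Its log2 ratio was 2.68, 2.87 and 2.30 on the o-nitrophenol arrays. In m-nitrophenol the 3 arrays gave 0.59, 2.66 and 2.58, and p-nitrophenol gave 3.02, 2.39 and 2.18. All but m-nitrophenol array 1 were above 2, and the groups overlapped. The value on m-nitrophenol array 1 came from the high-power scan alone. OPI3 rose by 2.62 ± 0.39 in o-nitrophenol (6.13 times the level before treatment, adjusted p = 0.00127), by 1.94 ± 0.39 in m-nitrophenol (3.85 times, 0.00826) and by 2.53 ± 0.39 in p-nitrophenol (5.77 times, 0.00233). The m-nitrophenol call ended without array 2 (1.58, 0.103) or array 3 (1.63, 0.0859) of that group, which leave the low array 1 and 1 other.

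CKI1 (YLR133W) and EKI1 (YDR147W) encode choline kinase and ethanolamine kinase, the enzymes that open the 2 arms of the Kennedy pathway. CKI1 had log2 ratios of 1.57, 1.04 and 1.71 in o-nitrophenol, 1.55 and 1.68 on m-nitrophenol arrays 2 and 3, and 1.62, 1.04 and 0.68 in p-nitrophenol. All 8 values were above 0, and the groups overlapped. CKI1 rose by 1.44 ± 0.27 in o-nitrophenol (2.71 times, adjusted p = 0.00452), by 1.61 ± 0.33 in m-nitrophenol (3.06 times, 0.0116) and by 1.11 ± 0.27 in p-nitrophenol (2.16 times, 0.0183). The m-nitrophenol call ended without array 2 (0.127) or 3 (0.135) of that group, which leave 1 array that is assumed to vary like the other groups, and the p-nitrophenol call without array 1 (0.86, 0.0697) or 2 (1.15, 0.0755) of that group. EKI1 was at -0.70 and -0.06 on o-nitrophenol arrays 2 and 3, at -0.79 and 0.47 on the same arrays of m-nitrophenol, and at -0.38, 1.27 and 0.69 in p-nitrophenol. Its arrays fell on both sides of 0, and its means of -0.38 ± 0.47, -0.16 ± 0.47 and 0.53 ± 0.39 did not pass (adjusted p = 0.562, 0.851 and 0.348). Without the 3 arrays numbered 1 EKI1 was higher in p-nitrophenol, by 0.98 (0.0443). The 2 kinases are related proteins, and the parts that their probes read are not known here.

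Leaving out all 3 arrays numbered 1 together changed calls of 4 of the 7 tested genes, ITR1, PSD1, CHO2 and EKI1. Without them 5 of the 7 tested genes were higher in m-nitrophenol (ITR1, PSD1, CHO2, OPI3 and CKI1), 5 were higher in p-nitrophenol (ITR1, CHO2, OPI3, CKI1 and EKI1), and in o-nitrophenol 4 were higher (ITR1, CHO2, OPI3 and CKI1) and PSD1 was lower. In that fit 2623, 2042 and 2146 of all 5096 genes were called in o-, m- and p-nitrophenol, against 1653, 913 and 1267 with all 9 arrays. By direction 1130, 1108 and 1150 were higher, against 702, 421 and 661 with all 9 arrays. Lower were 1493, 934 and 996, against 951, 492 and 606. On p-nitrophenol array 1 the median of the 8 genes was -0.57, while on the other 8 arrays the median of the measured genes ranged from 0.40 to 1.57. What sets the arrays numbered 1 apart was not tested.

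**Figure D2:**
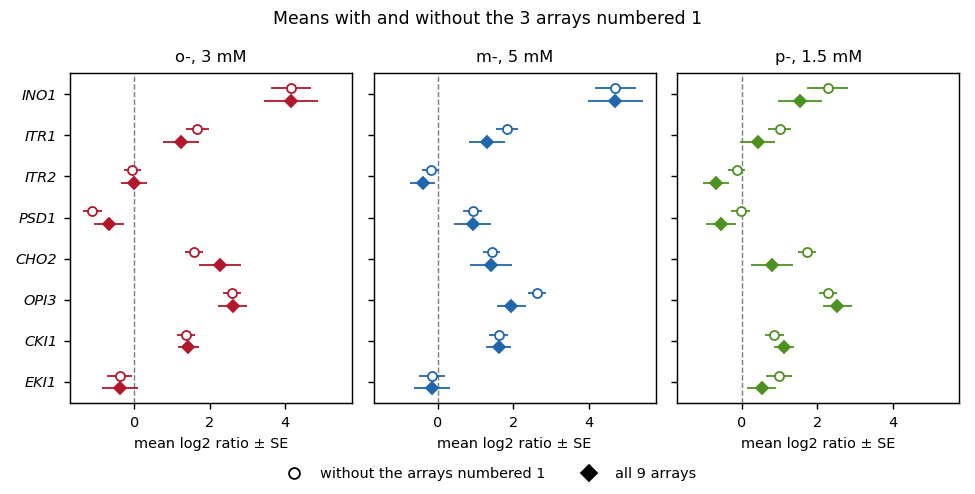
Mean log2 ratio to before treatment (horizontal axis, ± SE of the limma fit) of the 8 measured genes in o-, m- and p-nitrophenol, without the 3 arrays numbered 1 (open circles) and with all 9 arrays (filled diamonds). Without them CHO2 is at 1.59 in o-nitrophenol and 1.72 in p-nitrophenol, against 2.29 and 0.80 with all 9 arrays, and the standard errors are smaller.

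The isomers were compared with each other in 3 pairs. No gene of the 7 passed in any pair. Of all genes, 0.0196%, 1.18% (0.824% higher and 0.353% lower) and 0.726% passed for m against p, o against p and o against m. Before adjustment PSD1 alone of the 7 had a limma p under 0.05, for m against p and for o against m. The share of all genes under that unadjusted level was not counted. PSD1 was 1.47 higher in m- than in p-nitrophenol, with a 95% interval of 0.06 to 2.89 (adjusted p = 0.678), and 1.60 lower in o- than in m-nitrophenol, with an interval of -3.01 to -0.18 (0.230). Without the 3 arrays numbered 1 the second of these passed, at -2.04 (0.00613). CHO2 was 1.49 higher in o- than in p-nitrophenol, with an interval of -0.25 to 3.23 (0.317). The OPI3 interval ran from -1.13 to 1.30 between o and p, from -0.54 to 1.89 between o and m and from -1.80 to 0.63 between m and p, so that 2-fold differences in either direction lie inside at least 1 of them. For CKI1 they were -0.54 to 1.19, -1.14 to 0.79 and -0.47 to 1.47. The other intervals are shown in the plot of differences between isomers, and a miss of the threshold does not show that the isomers act alike.

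**Figure D3:**
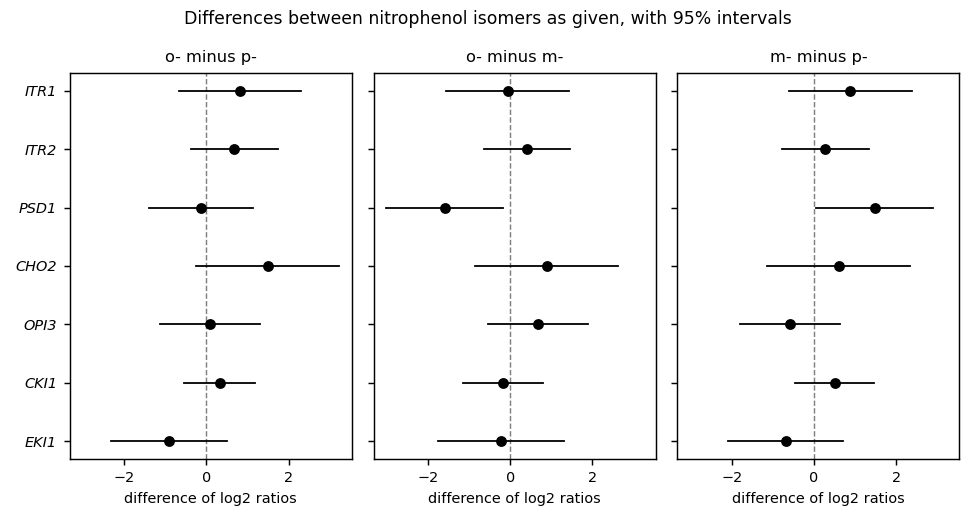
Differences of mean log2 ratios between nitrophenol isomers as given (horizontal axis; o minus p, o minus m and m minus p) for the 7 tested genes. Points are limma estimates and bars their 95% intervals. The 2 PSD1 intervals that involve m-nitrophenol do not cover 0, and neither passed after adjustment over all genes.

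By order of the means, INO1, ITR1, CKI1 and PSD1 were highest in m-nitrophenol, CHO2, OPI3 and ITR2 in o-nitrophenol, and EKI1 in p-nitrophenol. p-Nitrophenol had the lowest mean for INO1, ITR1, ITR2, CHO2 and CKI1. These orders turned for CHO2, OPI3 and ITR2 without the 3 arrays numbered 1. CHO2 was then highest in p-nitrophenol, OPI3 was highest in m-nitrophenol (2.62) and lowest in p-nitrophenol (2.29), and ITR2 was lowest in m-nitrophenol (-0.19). With all 9 arrays no neighbours in these orders differed past the threshold among the 7 tested genes.

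The genes with the ratios most like those of INO1 were sought over the 7 arrays that measured it, among 4210 genes with values on all 7. By Pearson's r they were MET13 (0.96), ITR1 (0.96), TFC6 (0.95), IMD3 (0.93) and CKS1 (0.92). MET13 encodes a methylenetetrahydrofolate reductase, TFC6 a subunit of a polymerase III transcription factor, IMD3 an IMP dehydrogenase and CKS1 a subunit of the cyclin-dependent kinase. ITR1, the inositol transporter gene, was thus the second of 4210 genes in likeness to INO1, and the other members ranked from 75 (ITR2, r = 0.73) to 2558 (OPI3, -0.17). With 1 array left out the lowest r was 0.947 for ITR1 and 0.833 for CKS1. The points share groups and array numbers, and may share RNA from before treatment. A like course does not mean a like direction, since IMD3 was between -2.91 and -1.84 on all 7 arrays.

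**Figure D4:**
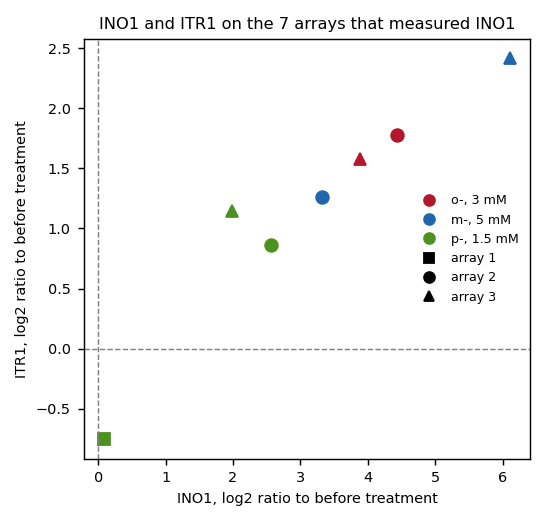
Log2 ratio to before treatment of INO1 (horizontal axis) and ITR1 (vertical axis) on the 7 arrays that measured INO1, coloured by isomer, with squares, circles and triangles for arrays 1, 2 and 3. m-Nitrophenol array 3 is highest for both genes (6.11 and 2.41) and p-nitrophenol array 1 lowest (0.08 and -0.76).

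Other genes of the pathway were taken from 7 lists written from textbook knowledge, 55 genes in all, of which 50 were tested. In o-nitrophenol 6 of the 50 rose and 10 fell, where 13.8% of all genes rose and 18.7% fell. In m-nitrophenol 4 rose and 5 fell, where 8.26% and 9.65% of all genes did. In p-nitrophenol 5 rose and 7 fell, where 13% and 11.9% did. The plot of other phospholipid genes shows those that passed in at least 1 isomer, without INM2 and PIK1, and adds the regulators INO2 and OPI1. INM2 and PIK1 fall outside the naming rule and are named here after their values were seen. INM2, an inositol monophosphatase gene, rose in o-nitrophenol by 1.45 ± 0.39 (0.0200) and in p-nitrophenol by 1.40 ± 0.39 (0.0286). Its o-nitrophenol call ended without array 1 (0.0783) or 2 (0.0749) of that group and its p-nitrophenol call without array 1 (0.79, 0.114) or 2 (0.0599) of that group. PIK1, a phosphatidylinositol kinase gene, fell in o-nitrophenol by 0.96 ± 0.27 (0.0225, and 0.0803 or 0.138 without replicate 2 or 3). Without all 3 arrays numbered 1, INM2 was at 1.15 (0.00345), 0.99 (0.00888) and 0.79 (0.0229) in o-, m- and p-nitrophenol, all past the threshold.

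**Figure D5:**
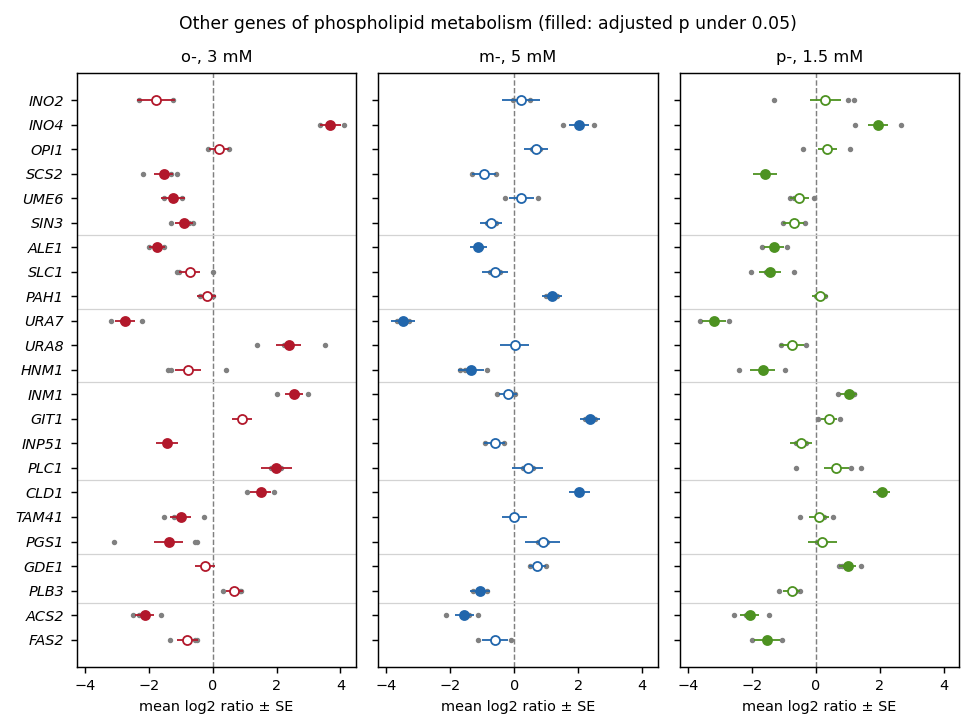
Mean log2 ratio to before treatment (horizontal axis, ± SE of the limma fit) of 23 other genes of phospholipid metabolism in o-, m- and p-nitrophenol. Grey dots are arrays, filled circles passed an adjusted p of 0.05, open circles did not, and grey lines separate the lists. INO4 is to the right of 0 and URA7 and ACS2 to the left of 0 on every array that measured them.

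Of the regulators of the shared promoter element, INO4 rose in all 3 isomers. Its log2 ratio was 4.10, 3.60 and 3.36 on the o-nitrophenol arrays. In m-nitrophenol the 3 arrays gave 1.52, 2.50 and 2.08, and p-nitrophenol gave 1.24, 2.66 and 1.92. Every o-nitrophenol array lay above every other array. INO4 rose by 3.69 ± 0.32 in o-nitrophenol (adjusted p = 0.000102), by 2.03 ± 0.32 in m-nitrophenol (0.00298) and by 1.94 ± 0.32 in p-nitrophenol (0.00289), and each call held without any 1 array. INO4 was 1.75 higher in o- than in p-nitrophenol (0.0832) and 1.65 higher than in m-nitrophenol (0.102), and neither difference passed.

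INO2 encodes the partner of Ino4. It was at -2.31 and -1.23 on o-nitrophenol arrays 2 and 3, at -0.04 and 0.48 on the same arrays of m-nitrophenol, and at -1.30, 1.20 and 1.00 in p-nitrophenol. Both o-nitrophenol arrays were below 0, with a mean of -1.77 ± 0.59 (adjusted p = 0.0509). That mean passed without o-nitrophenol array 1 (0.0439), p-nitrophenol array 1 (0.00855) or p-nitrophenol array 2 (0.0496). INO2 held no value on o-nitrophenol array 1, so leaving that array out did not change its mean. Without the 3 arrays numbered 1 the o-nitrophenol mean also passed (-1.77, 0.00150). The same held with the high-power scans alone (-1.90, 0.0376), the low-power scans alone (-1.65, 0.0136) and all 18 scans (0.0104). In m- and p-nitrophenol the means were 0.22 ± 0.59 (0.833) and 0.30 ± 0.49 (0.683). Without the 3 arrays numbered 1, INO2 was 2.87 lower in o- than in p-nitrophenol (0.00436) and 2.00 lower than in m-nitrophenol (0.0135). In p-nitrophenol INO2 passed as a rise without those arrays (1.10, 0.0188) and with the low-power scans alone (1.19, 0.0427). With the replicate number as a block INO2 passed in o-nitrophenol (-2.57, 0.00433) and in o against p (-2.87, 0.0341). OPI1, the repressor gene, averaged 0.21 ± 0.31, 0.67 ± 0.38 and 0.36 ± 0.31 in o-, m- and p-nitrophenol (0.634, 0.246 and 0.411), and passed in p-nitrophenol without the 3 arrays numbered 1 (0.74, 0.0435). SCS2, which encodes the endoplasmic reticulum protein that holds Opi1, fell in o-nitrophenol by 1.54 ± 0.30 (0.00679) and in p-nitrophenol by 1.59 ± 0.37 (0.0178, and 0.0721 or 0.118 without replicate 1 or 2 of that group). UME6 and SIN3, of a corepressor complex that also acts on INO1, fell in o-nitrophenol by 1.24 ± 0.38 (0.0367) and 0.89 ± 0.28 (0.0397), and both calls ended with the arrays centred on their medians (0.0544 and 0.0763). That of UME6 also ended without array 2 or 3 of o- or p-nitrophenol (0.0505 to 0.265), and that of SIN3 without any 1 o-nitrophenol array, m-nitrophenol array 2 or 3, or p-nitrophenol array 3 (0.0561 to 0.122).

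Of the other genes that Ino2 and Ino4 are known to activate, 2 of the 4 listed were tested. ACS2, an acetyl-CoA synthetase gene, was at -2.48, -1.62 and -2.29 on the o-nitrophenol arrays. In m-nitrophenol the 3 arrays gave -1.13, -2.12 and -1.43, and p-nitrophenol gave -2.17, -2.57 and -1.47. All 9 arrays were below -1. ACS2 fell by 2.13 ± 0.31 (0.00108), 1.56 ± 0.31 (0.00795) and 2.07 ± 0.31 (0.00217) in o-, m- and p-nitrophenol, and the m-nitrophenol call ended without array 2 (0.101) or 3 (0.0567) of that group. FAS2, a fatty acid synthase subunit gene, fell in p-nitrophenol by 1.53 ± 0.41 (0.0290), a mean of 2 arrays whose call ended without either of them (0.0672 and 0.272).

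The Kennedy pathway list holds both CTP synthase genes, whose product supplies the CTP for CDP-choline, CDP-ethanolamine and CDP-diacylglycerol. URA7, the major one, fell by 2.74 ± 0.31 in o-nitrophenol (0.000688), 3.48 ± 0.37 in m-nitrophenol (0.00133) and 3.17 ± 0.37 in p-nitrophenol (0.00166), and each call held without any 1 array. URA8 was at 3.51, 1.37 and 2.24 in o-nitrophenol, at 0.07 and -0.04 on m-nitrophenol arrays 2 and 3, and at -0.31, -0.83 and -1.09 in p-nitrophenol. It rose in o-nitrophenol by 2.37 ± 0.38 (0.00227) and was 3.12 higher there than in p-nitrophenol (0.0284). HNM1, the choline transporter gene, fell in m-nitrophenol by 1.35 ± 0.40 (0.0417) and in p-nitrophenol by 1.67 ± 0.40 (0.0149). In o-nitrophenol it passed without array 1 of that group (-1.36, 0.0209) and without the 3 arrays numbered 1 (-1.36, 0.00224). The m-nitrophenol call ended without any 1 of the m-nitrophenol arrays (0.0547 to 0.254), o-nitrophenol array 3 (0.0558) or p-nitrophenol array 2 (0.0578), and the p-nitrophenol call without array 1 (0.0774) or 2 (0.0677) of that group.

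On the inositol side, INM1, which encodes an inositol monophosphatase that completes the step Ino1 begins, was at 2.01, 2.63 and 3.00 on the o-nitrophenol arrays. In m-nitrophenol the 3 arrays gave -0.54, -0.07 and 0.02, and p-nitrophenol gave 0.68, 1.20 and 1.19. The 3 isomers did not overlap. INM1 rose by 2.55 ± 0.27 in o-nitrophenol (0.000249) and by 1.02 ± 0.27 in p-nitrophenol (0.0212), and averaged -0.20 ± 0.27 in m-nitrophenol (0.648), where INO1 had its highest mean. It was 2.74 higher in o- than in m-nitrophenol (0.0215). GIT1, the transporter gene for glycerophosphoinositol, rose in m-nitrophenol by 2.37 ± 0.32 (0.00288, a mean of 2 arrays, and 0.0545 without replicate 3). In o-nitrophenol PLC1, the phospholipase C gene, rose by 1.99 ± 0.48 (0.0158) and the phosphoinositide phosphatase gene INP51 fell by 1.43 ± 0.33 (0.0158), both means of 2 arrays whose calls ended without either. The INM1 call in p-nitrophenol ended without array 2 (0.113) or 3 (0.112) of that group.

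In the phosphatidate branch ALE1, which encodes a lysophospholipid acyltransferase, fell in all 3 isomers. It fell by 1.75 ± 0.25 in o-nitrophenol (0.00149), 1.12 ± 0.25 in m-nitrophenol (0.0173) and 1.30 ± 0.31 in p-nitrophenol (0.0169). The m-nitrophenol call ended without any 1 array of that group (0.0501 to 0.122) and the p-nitrophenol call without array 1 (0.116). The acyltransferase gene SLC1 fell in p-nitrophenol by 1.43 ± 0.34 (0.0158, and 0.105 or 0.0795 without replicate 2 or 3), and the phosphatidate phosphatase gene PAH1 rose in m-nitrophenol by 1.17 ± 0.31 (0.0334). That PAH1 call ended without m-nitrophenol array 2 (0.184) or 3 (0.268), o-nitrophenol array 3 (0.0542), or p-nitrophenol array 2 (0.0529) or 3 (0.0618). In the cardiolipin list CLD1, the cardiolipin deacylase gene, rose by 1.50 ± 0.32 in o-nitrophenol (0.00983), 2.04 ± 0.32 in m-nitrophenol (0.00527) and 2.06 ± 0.26 in p-nitrophenol (0.00212). The first call ended without o-nitrophenol array 3 (0.137) and the second without m-nitrophenol array 2 (0.0784) or 3 (0.0756). TAM41 and PGS1, early steps of cardiolipin synthesis, fell in o-nitrophenol by 1.01 ± 0.32 (0.0378) and 1.38 ± 0.45 (0.0438), and PGS1 was at -0.50, -0.56 and -3.08 on the 3 arrays, so that its mean was -0.53 (0.254) without array 3. Both calls ended with the arrays centred on their medians (0.0733 and 0.0701). Without array 2 or 3 of any isomer TAM41 did not pass (0.0512 to 0.210), nor did PGS1 (0.0533 to 0.254), and PGS1 did not pass without p-nitrophenol array 1 (0.0519). Of the phospholipid breakdown genes, GDE1, a glycerophosphocholine phosphodiesterase gene, rose in p-nitrophenol by 1.00 ± 0.25 (0.0212) and the phospholipase B gene PLB3 fell in m-nitrophenol by 1.07 ± 0.32 (0.0469). The GDE1 call ended without any 1 p-nitrophenol array (0.0622 to 0.0740) and that of PLB3 without array 2 or 3 of any isomer (0.0587 to 0.390).

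Further calls appeared among these other genes without the 3 arrays numbered 1. In o-nitrophenol SLC1 fell (-1.08, 0.00535), while GIT1 (0.92, 0.0151) and PLB3 (0.87, 0.0173) rose. In m-nitrophenol SIN3 fell (-0.72, 0.0474). In p-nitrophenol PLC1 rose (1.27, 0.00336), while URA8 (-0.96, 0.0196) and PLB3 (-0.88, 0.0202) fell. The p-nitrophenol call of ALE1 ended (-0.91, 0.0580).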

How the data were processed

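The 9 arrays (3 for each isomer) gave 18 columns, from 1 scan of each at high and 1 at low laser power. The deposited values are log2 ratios that the authors normalized with LOWESS on spots with flag 0, per the labels. The base of the logarithm follows from 13 values that lie at the log2 of 0.01. How background was corrected is not stated, and spot intensities were not analysed here, so signal over background could not be examined. A scan held values for 766 to 6080 of 6912 probes. The column medians ranged from -0.13 to 0.12. No genome build is named, so no coordinates are given, and promoter motifs, though planned, were not searched because no sequences were used here.

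Of the probes, 5513 had 1 gene symbol, 0 several and 1399 none; 5508 took a current symbol from RefSeq (R64 assembly) by Entrez identifier. Probes of a gene and scans of an array were averaged. limma 3.58.1 in R 4.3.3 fitted group means over 9 arrays (residual degrees of freedom 6, prior 4.41). Each isomer was tested against 0, which leaves out the spread of the RNA from before treatment, and the isomers in 3 pairs. The fit was tested on simulated data. Precision is limited by the number of arrays.

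The members, lists, tests and alternatives were chosen with earlier results of these data known. One member is not reported here. All others are named, with INO2, INO4 and OPI1, up to 4 called genes with the lowest adjusted p of each list, and the 5 genes most like INO1. Alternatives were 1 scan power, all 18 scans with a random array effect (correlation 0.888, statmod 1.5.0), centring, scale and quantile normalization, other filters on missing values, the replicate number as a block, leaving out arrays, fits of the compared groups alone, trend with robust moderation, and adjustment over the 3 pairs together.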

Additional observations from a re-analysis of the deposited data

Results flagged for a closer look

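Differences between isomers that passed the test are given here for the genes named above. URA8 was 3.12 higher in o- than in p-nitrophenol (limma, adjusted p = 0.0284), with all 3 o-nitrophenol arrays above 0 and all 3 p-nitrophenol arrays below it. The call ended without o-nitrophenol replicate 3 (0.0918), m-nitrophenol replicate 2 (0.0721) or 3 (0.0673), or p-nitrophenol replicate 2 (0.127) or 3 (0.146), and with only the compared groups fitted (0.0749), and held without the 3 arrays numbered 1 (2.76, 0.00318). INM1 was 2.74 higher in o- than in m-nitrophenol (adjusted p = 0.0215). This call ended without o-nitrophenol replicate 2 (0.0823) or 3 (0.118) or m-nitrophenol replicate 2 (0.106) or 3 (0.0818), and held without the 3 arrays numbered 1 (2.84, 0.00100). Doses differ between the isomers.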

How the results depend on the processing

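Of 1008 values of the 8 genes under the alternatives, 962 kept their side of the threshold or, for INO1, stayed within 1 standard error. A further 25 came to pass, 9 ceased to pass and 11 INO1 values moved further. Some of the 962 changed sign without passing. In o minus p, PSD1 kept its sign in 15 of 21 alternatives and OPI3 in 17 of 22. INO1 in o minus m, -0.55 with all arrays, ran from -1.95 without m-nitrophenol replicate 2 to 0.85 without replicate 3. The count of the 7 tested genes called was 2 in p-nitrophenol, and became 5 without the 3 arrays numbered 1, 1 with only that group in the fit, and 1 of 4 among genes with values on all 9 arrays, where fewer genes could be tested. In m-nitrophenol it was 2, and became 5 without the arrays numbered 1, 4 with all 18 scans, 4 with quantile normalization, and 1 of 4 on all 9 arrays. In o-nitrophenol it was 3, and became 5 without the arrays numbered 1, 2 with the low-power scans alone, 2 of 4 on all 9 arrays, and 4 with the high-power scans, all 18 scans or centred arrays. Between isomers it was 0, and 1 in o minus m without the arrays numbered 1. Leaving out each array in turn gave 1 to 2 in p-nitrophenol, 0 to 3 in m-nitrophenol, 3 to 4 in o-nitrophenol and 0 in every pair. The cause of these shifts was not tested.

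Counts over all genes moved as well. The main fit called 1653, 913 and 1267 of 5096 genes in o-, m- and p-nitrophenol. Among the 1757 genes on all 9 arrays 592, 373 and 525 were called. Leaving out replicate 2 or 3 of the group gave 847 and 842, 147 and 207, and 499 and 567. All 18 scans gave 1794, 1106 and 1449. In m-nitrophenol scale normalization gave 1370 and quantile normalization 1317. A fit of o-nitrophenol alone gave 1052 and of p-nitrophenol alone 975. In o-nitrophenol the high-power scans gave 1641 of 5037, the low-power scans 1161 of 3776 and centred arrays 1581 of 5096. In o minus p, o minus m and m minus p 60, 37 and 1 genes were called, against 1083, 1054 and 292 without the arrays numbered 1 and 249, 226 and 2 with all 18 scans. Other alternatives ranged from 6 to 211, 2 to 293 and 0 to 4.

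The replicate number was tried as a replicate block. Deviations from the group means correlated above 0.1 in 8 of 9 same-numbered pairs (0.06 to 0.37), and all 9 arrays correlated best with their own number, a hint from the data and not the design. With the block, 4, 3 and 2 of the 7 genes were called in o-, m- and p-nitrophenol, where 2051, 1249 and 1631 of all 5096 genes were. ITR1 was added in the first 2 (0.00595 and 0.00870). In each pair 0 of the 7 were called, while all-gene calls were 189, 180 and 0 in o minus p, o minus m and m minus p.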
